A study of Caenorhabditis elegans with 2 samples.

Results

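DAF-16 binding was examined at the histone genes of Caenorhabditis elegans, taken as all protein-coding genes whose name begins with his- or hil-, plus htz-1. The annotation of assembly WBcel235 (ce11) holds 81 such genes among 19973 nuclear protein-coding genes. Both libraries came from whole L4 larvae, mixed sex, of the transgenic strain XE1464, whose labelled genotype is unc-119(ed3) III. The animals carried an insertion that expresses DAF-16 fused to GFP and FLAG at its C-terminus. Tagged DAF-16 was mapped by chromatin immunoprecipitation and sequencing after sonication, in 2 biological replicates of this single group. There was no treated, mutant or untagged group, so the data give where DAF-16 was found, not how its binding changed. The animals were taken whole, so the tissue in which a site was bound is not resolved. The files hold peaks and no read counts, so the depth of both libraries is unknown.

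DAF-16 is the FOXO transcription factor through which insulin-like signalling acts on stress resistance, dauer formation and lifespan. Core histones H2A, H2B, H3 and H4 form the nucleosome around which DNA is wrapped, and linker histone H1 binds the DNA between nucleosomes. Most core histone genes of animals are expressed in S phase, lie in clusters of near-identical copies and make messages without a poly(A) tail. Replacement variants, such as H2A.Z and H3.3, come mostly from genes outside the clusters and enter chromatin independently of replication.

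The authors deposited a list of peaks thresholded on the irreproducible discovery rate (IDR), which measures how far replicates rank the same peaks alike. The histone peaks of this list had the same signal and rank in the pooled list, the longer list from both replicates together. The his-72 peak had no counterpart within 100 bp in either replicate, so a listed peak was not always found in each replicate. A gene was called bound when a summit of the thresholded list fell in its window, the 1000 bp before and 300 bp after an annotated start. By this rule 14 of the 81 histone genes were bound (17.3%), against 23.9% of all protein-coding genes (4779 of 19973). The 14 genes shared 10 peaks, since a summit between divergent genes counts for both. Clustered genes other than variants, those with another histone gene within 5 kb, made up 64 of the 81 genes and 11 of the 14 bound ones. Their strongest peaks lay between an H2A and an H2B gene, his-61 and his-62, and upstream of the H4 gene his-37. The H2A.Z gene htz-1, the H3.3 gene his-72 and the linker gene his-24 were the bound genes among 16 variant and linker genes.

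The sequences under 6 of these peaks are shown because 5 of them hold the same short word close to the summit, and a gap between histone genes with the same word and no peak is shown for comparison. Each peak sequence spans up to 75 bp on either side of the summit, cut where an annotated transcript begins, and is given 5' to 3' from the RefSeq genome of WBcel235 (ce11). Capitals mark ATGTGTCCC, its extension ATGTGTCCCCGCAG, or their reverse complement.
his-61/his-62 peak, chrIV:7486319-7486469, + strand: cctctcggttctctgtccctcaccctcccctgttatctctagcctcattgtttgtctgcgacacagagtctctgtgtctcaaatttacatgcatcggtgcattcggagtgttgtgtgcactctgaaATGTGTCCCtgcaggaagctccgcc
his-37 peak, chrV:9546968-9547104, + strand: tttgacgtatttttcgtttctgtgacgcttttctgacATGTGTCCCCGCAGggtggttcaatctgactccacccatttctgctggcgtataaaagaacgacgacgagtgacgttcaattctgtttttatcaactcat
his-3/his-4 peak, chrV:16040581-16040731, + strand: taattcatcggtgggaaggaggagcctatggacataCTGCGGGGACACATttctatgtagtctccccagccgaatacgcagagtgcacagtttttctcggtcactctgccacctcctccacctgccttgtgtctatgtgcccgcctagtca
his-59/his-60 peak, chrIV:7488031-7488181, + strand: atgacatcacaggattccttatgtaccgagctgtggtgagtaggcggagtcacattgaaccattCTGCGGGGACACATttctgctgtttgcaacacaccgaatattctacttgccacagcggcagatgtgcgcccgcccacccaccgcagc
his-24 peak, chrX:14489959-14490093, + strand: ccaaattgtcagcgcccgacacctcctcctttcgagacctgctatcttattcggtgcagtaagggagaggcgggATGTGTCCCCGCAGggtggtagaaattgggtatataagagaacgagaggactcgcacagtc
htz-1 peak, chrIV:4445844-4445994, + strand: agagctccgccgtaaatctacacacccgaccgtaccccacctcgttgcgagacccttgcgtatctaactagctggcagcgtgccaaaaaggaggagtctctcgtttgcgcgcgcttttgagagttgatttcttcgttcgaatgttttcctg
his-6/his-5 gap, chrV:8534978-8535213, + strand: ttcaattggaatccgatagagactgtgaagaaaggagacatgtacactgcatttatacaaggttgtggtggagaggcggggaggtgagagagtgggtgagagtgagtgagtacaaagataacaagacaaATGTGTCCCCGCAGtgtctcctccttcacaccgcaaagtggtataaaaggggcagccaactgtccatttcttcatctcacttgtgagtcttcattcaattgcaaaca

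The 9-base word ATGTGTCCC was found within 75 bp of the summit, on either strand, at 5 of the 10 histone peaks and at 10 of all 4693 promoter peaks (0.213%). The 14-base form ATGTGTCCCCGCAG occurred at the his-59/his-60, his-37, his-3/his-4 and his-24 peaks, which were the 4 promoter peaks that held it in the whole list. The H1 gene his-24 and the H4 gene his-37 each carried it upstream of a single start, while the other 2 copies lay between divergent core genes. Both words were picked after the sequences under the peaks had been read, so these shares describe them and test nothing. The same word also marked histone genes without a peak. Within 250 bp upstream of a start, the 14-base form was present at 22 histone genes, 6 bound and 16 not, and at 2 other genes of the genome, neither bound. The 9-base form was present at 46 histone genes, 9 bound and 37 not, and at 23 other genes, 3 of them bound. Many of the unbound histone genes with either form lie in sequence repeated elsewhere in the genome, described below. Among gaps between divergent histone genes that were under 50% repeated, 2 of 4 with the 14-base form held a summit. So did 2 of 7 without it, 3 of 6 with the 9-base form and 1 of 5 without that form. The his-6/his-5 gap holds the 14-base form in a sequence that is only 2.14% repeated elsewhere in the genome, and no summit lay in it.

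Known DAF-16 motifs were found at few of the 10 summits. The DAF-16 binding element GTAAACA, sought on both strands within 75 bp, was absent from all 10 histone peaks and present at 9.06% of promoter peaks. The DAF-16 associated element CTTATCA was found at the his-26 peak alone, against 21.1% of promoter peaks. The GATA site TGATAA, which overlaps that element, was found at the his-26 and his-37 peaks, against 40.2%. An absent match says only that these letters were not in the window.

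The signal of a peak is the authors' own score, whose scale is not stated and which ranks peaks within a list. Among the 10 histone peaks its median was 107.9, against 111.0 for all promoter peaks and 107.3 for all nuclear peaks of the thresholded list. The weakest peak of that list had 35.4 and the strongest nuclear peak 1392. Counterparts within 100 bp in the lists of both replicates were found for 8 of the 10 histone peaks, against 78.8% of promoter peaks. The summits lay in intergenic sequence for 9 of the 10, against 67.0% of promoter peaks.

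**Figure D1:**
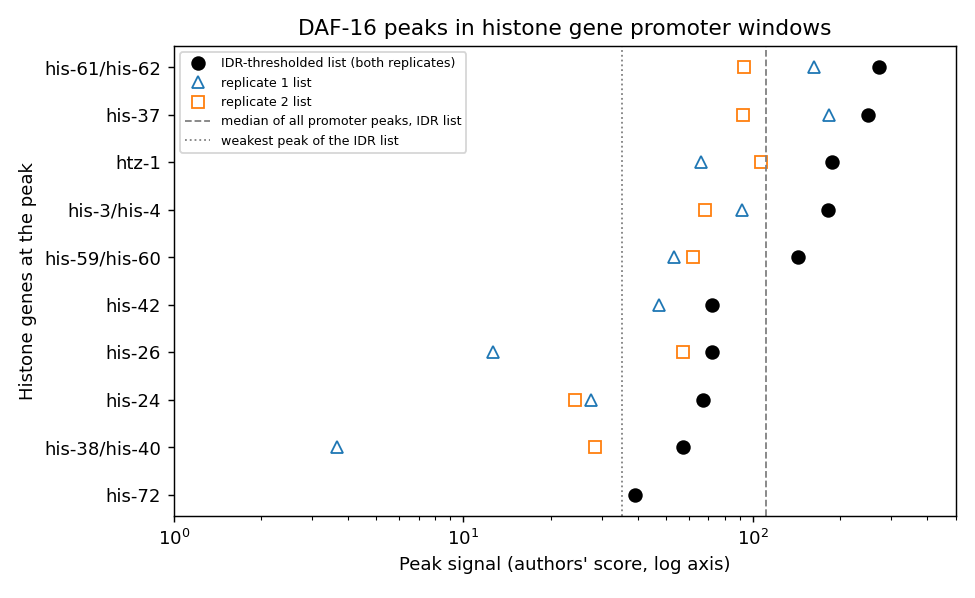
Signal (the authors' score, log axis) of the 10 histone peaks in the IDR-thresholded list (filled circles) and of their counterparts within 100 bp in the list of replicate 1 (triangles) and replicate 2 (squares), with the genes at each peak on the vertical axis. The dashed and dotted lines give the median of promoter peaks (111.0) and the weakest peak (35.4) of the thresholded list and do not apply to the replicate lists. The his-72 peak has no counterpart in either replicate and the his-42 peak none in replicate 2.

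Pairs of divergent core genes shared 4 of the peaks. His-61, an H2A gene (WBGene00001935, chrIV:7485834-7486217, - strand), and his-62, an H2B gene (WBGene00001936, chrIV:7486545-7486916, + strand), are read away from each other. Their shared summit lay at 7486394, 177 bp upstream of his-61 and 151 bp upstream of his-62, and had a signal of 271.8 in the thresholded list. It had 162.3 in replicate 1 and 93.2 in replicate 2. It ranked 1130 in the thresholded list, with 87.4% of nuclear peaks weaker. In the same locus, the H4 gene his-60 and the H3 gene his-59 shared a summit at 7488106, with a signal of 143.5, and 53.4 and 62.1 in the replicates. This was the single locus of 4 genes in which all were bound.

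On chromosome V, the H2A gene his-3 (WBGene00001877, chrV:16040808-16041191, + strand) and the H2B gene his-4 (WBGene00001878, chrV:16040144-16040515, - strand) shared a summit at 16040656. Its thresholded signal was 181.7, and the replicates had 91.3 and 68.1. The H3 and H4 genes his-2 and his-1 of the same locus were not bound. Their strongest summits in the pooled list, the longer list from both replicates together, had 17.4 and 5.0. On the X chromosome, the H4 gene his-38 and the H3 gene his-40 shared a summit with 57.5, which had 3.67 in replicate 1 and 28.5 in replicate 2, so it was low in replicate 1.

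His-37 (WBGene00001911, chrV:9547105-9547607, + strand) is an H4 gene whose annotated transcript has a 5' UTR, unlike most core genes. Its summit lay 62 bp upstream of the start with a signal of 249.8, ranked 1339, and had 183.3 in replicate 1 and 92.3 in replicate 2. Its neighbours his-35, an H2A variant gene, and his-41, an H2B gene, share a divergent gap whose summit had 34.1 in the pooled list, just under the 35.4 of the weakest thresholded peak. They were thus the genes closest outside the threshold, and his-72 with 39.1 the closest inside.

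The remaining core genes were bound through more distant summits. The H3 gene his-42 lies at the end of the largest locus, 13 genes over 10938 bp of chromosome II, and its summit was 567 bp upstream. That peak had 72.2 in the thresholded list and 47.2 in replicate 1, and the closest summit of replicate 2 was 112 bp away with 10.4. In the same locus, the H4 gene his-26 was called bound through a summit 833 bp upstream with 72.1, and 12.7 and 57.4 in the replicates. This summit lay between the 3' ends of his-9 and his-25 and nearest to the start of his-25, 560 bp past it. The other 11 genes of the locus had no thresholded summit in their windows.

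**Figure D2:**
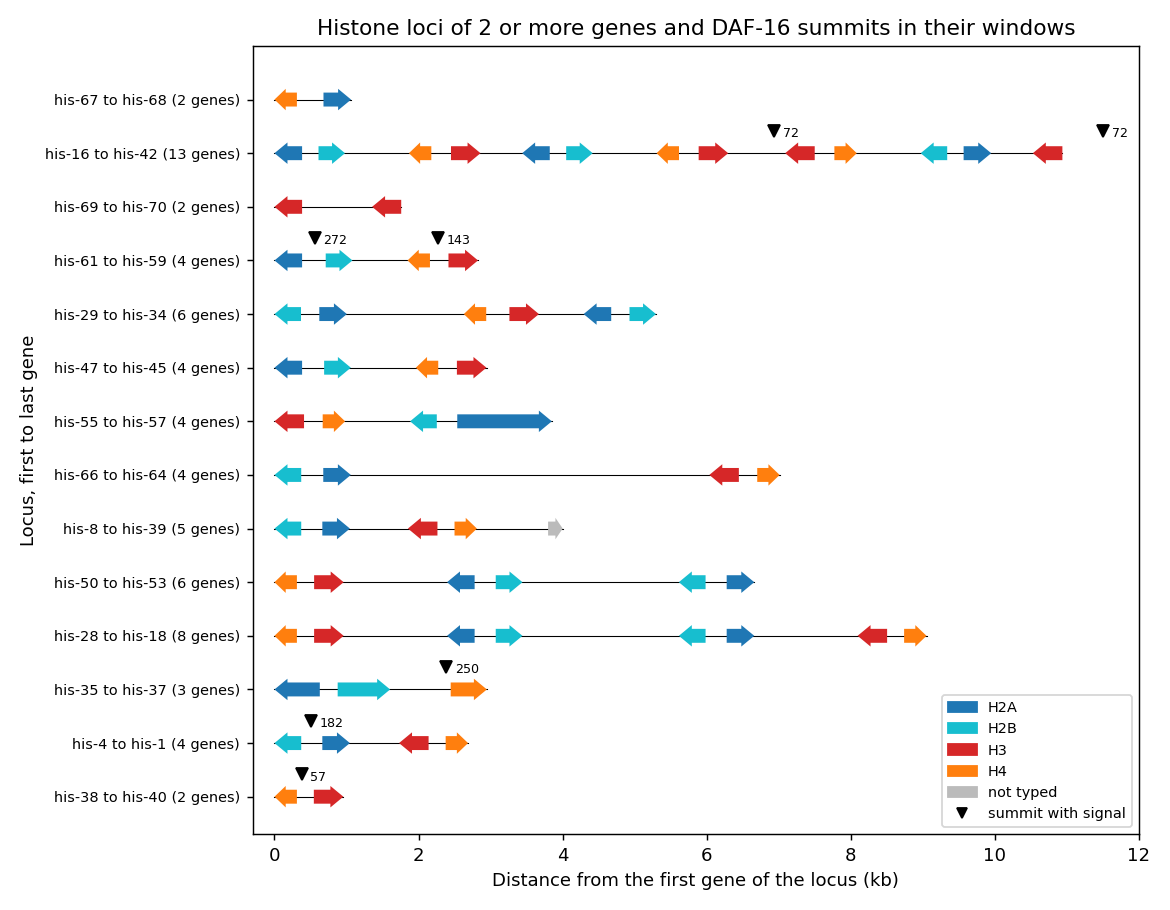
The 14 histone loci of 2 or more genes, drawn to scale as distance in kb from the first gene; arrows are genes pointing in the direction of transcription, coloured by histone type, and triangles are thresholded summits in a promoter window with their signal. Summits stand in 5 of the 14 loci, and 4 of the 7 lie between divergent genes.

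Among the variant genes, the strongest peak was that of htz-1 (WBGene00019947, chrIV:4446216-4446999, + strand), which encodes H2A.Z, a variant found at promoters. The peak had 187.3 in the thresholded list, and 66.1 and 106.5 in the replicates. The summit lay 297 bp upstream of htz-1 and 179 bp upstream of the neighbouring gene wapl-1, so it is nearer to that gene. The linker gene his-24 (WBGene00001898, chrX:14490094-14491119, + strand) had a summit 60 bp upstream with 67.3, and 27.7 and 24.3 in the replicates. The H3.3 gene his-72 (WBGene00001946, chrIII:12367475-12369050, - strand) had the weakest of the 10 peaks. It lay in an intron and counted through an annotated start inside the gene, its signal was 39.1, and the closest summits of the replicates were 199 bp away with 24.8 and 210 bp away with 4.81.

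The other H3.3 type genes his-69, his-70, his-71 and his-74, the H2A variant gene his-35 and the linker genes hil-1 to hil-8 were not bound. His-71 had a pooled-list summit with 32.4, with a counterpart of 18.6 in replicate 2 and none within 100 bp in replicate 1. Hil-3 had one with 26.5 in the pooled list and 20.6 in replicate 2. Hil-7 had a summit in replicate 2 alone, with 12.5. For his-69, his-70, his-74, hil-1, hil-2, hil-4, hil-5, hil-6 and hil-8 no summit lay in the window in the pooled list or in either replicate.

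Of the 67 genes with another histone gene within 5 kb, 11 were bound (16.4%), and of the 14 solitary genes 3 were (21.4%). Variant and linker genes were bound in 3 of 16 cases (18.8%) and the other genes in 11 of 65 (16.9%). Many of the other genes lie in sequence repeated elsewhere in the genome, described below, so these shares are not like for like. With neighbours within 5 kb counted once, the 81 genes formed 28 loci, of which 8 were bound (28.6%), 5 of the 14 loci of several genes and 3 of the 14 solitary ones. By type, bound genes were 1 of 9 for H1, 3 of 18 for H2A, 2 of 16 for H2B, 4 of 20 for H3 and 4 of 16 for H4. His-24, whose product name gives no type, was counted as H1 by its symbol. His-39 and his-73, named only as domain-containing proteins, were left without a type and were not bound. The shares of genes stand beside the 23.9% of all genes. A locus counts as bound if any of its genes is, so that value is no background for the shares of loci, and none was computed. By chromosome, bound histone genes were 5 of 25 on IV (23.7% of all genes there), 3 of 30 on V (19.9%), 2 of 14 on II (22.1%), 1 of 3 on III (30.5%) and none of the 4 on I (24.1%). On X they were 3 of 5, through 2 peaks (27.4% of all genes). No test was applied to these counts, since neighbouring genes share peaks and sequence.

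Many of the clustered genes lie in sequence that occurs elsewhere in the genome, where reads can match several copies. A window was scored by the share of its 50-base words found more than once in the genome, on either strand. At least 50% of the words were repeated for 40 of the 81 histone genes (49.4%), against 479 of all 19973 genes (2.40%), and 20 histone windows were repeated throughout. Of those 40 genes, 1 was bound (his-26), where the share over all such genes was 2.71% (13 of 479). The stretch within 150 bp of the his-26 summit was itself 11.9% repeated. Of the 41 histone genes with less repeated windows, 13 were bound (31.7%), against 24.4% (4766 of 19494). Among the 41, clustered genes other than variants were bound in 10 of 24 cases (41.7%). Most of these 10 were bound through a peak shared with a divergent gene, which counted for both genes. The variant and linker genes, bound in 3 of 16 cases (18.8%), all belong to the 41, and the difference was not tested. The median repeated share was 8.03% for bound and 80.0% for unbound histone genes, and no variant or linker gene exceeded 9.19%. How reads that match several copies were treated is not given in the sources used here, and the part of repeated sequence in the missing peaks was not tested.

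**Figure D3:**
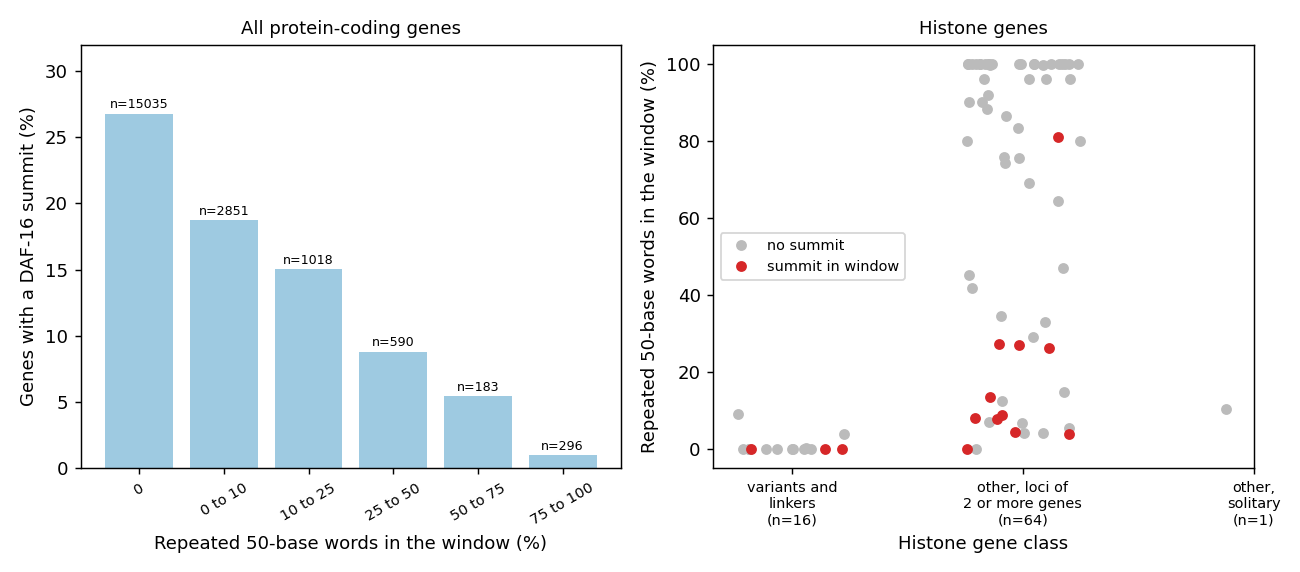
Left, percent of all protein-coding genes with a thresholded DAF-16 summit in the window, by the percent of 50-base words of the window that are repeated in the genome, with the number of genes above each bar; it goes from 26.8% with no repeated word to 1.01% above 75%. Right, the repeated percent for each histone gene by class, red where a summit lies in the window; his-26 is the red point above 50%.

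The same was seen between divergent genes. Histone genes formed 31 divergent pairs with 227 to 368 bp between their starts, which made 21 distinct sequences, and 16 of the gaps had an identical copy. A thresholded summit lay in 4 of the 31 gaps (12.9%), against 33.4% of other divergent protein-coding pairs with gaps of these lengths (99 of 296). None of the 20 gaps that were at least 50% repeated held one, and of the other pairs only 7 were as repeated, with a summit in 0 (0%). Of the 11 less repeated histone gaps 4 held a summit (36.4%), against 34.3% of the other pairs (99 of 289), so the share among them was near the background. The 4 were 2 of 16 gaps between H2A and H2B genes and 2 of 14 between H3 and H4 genes. Less repeated gaps without a thresholded summit were those of his-67/his-68, his-31/his-32, his-63/his-64, his-8/his-7, his-6/his-5, his-35/his-41 and his-2/his-1.

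Closely related gaps differed in whether they held a summit. The bound his-4/his-3 gap was 88.7% identical to the gap of his-54/his-53, which has identical copies and no summit. The bound his-60/his-59 gap was 86.8% identical to that of his-46/his-45, and the bound his-38/his-40 gap was 89.4% identical to that of his-2/his-1, both without a thresholded summit. The his-46/his-45 gap was itself 76.1% repeated. Less repeated relatives also lacked a thresholded summit. They were his-63/his-64 (3.90% repeated, 85.5% identical to his-60/his-59) and his-8/his-7 (14.4% repeated, 87.0% identical to his-4/his-3). The his-2/his-1 gap has no repeated 50-base word. The his-35/his-41 gap was at most 59.8% identical to any other histone gap.

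Of the 67 unbound histone genes, 10 had a weaker summit in the pooled list (14.9%), near the 12.8% of all genes without a thresholded summit (1949 of 15194). Their signals were 5.0 to 34.1. Of the 67, 56 had none in the pooled list or in either replicate. Of these 56, 35 had windows at least 50% repeated and 21 did not. Those with pooled summits far upstream were his-15 (29.6), his-17 (28.8), his-46 (25.5), his-48 (19.9), his-2 (17.4) and his-1 (5.0), while the his-35, his-41 and his-71 summits lay close to the start.

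**Figure D4:**
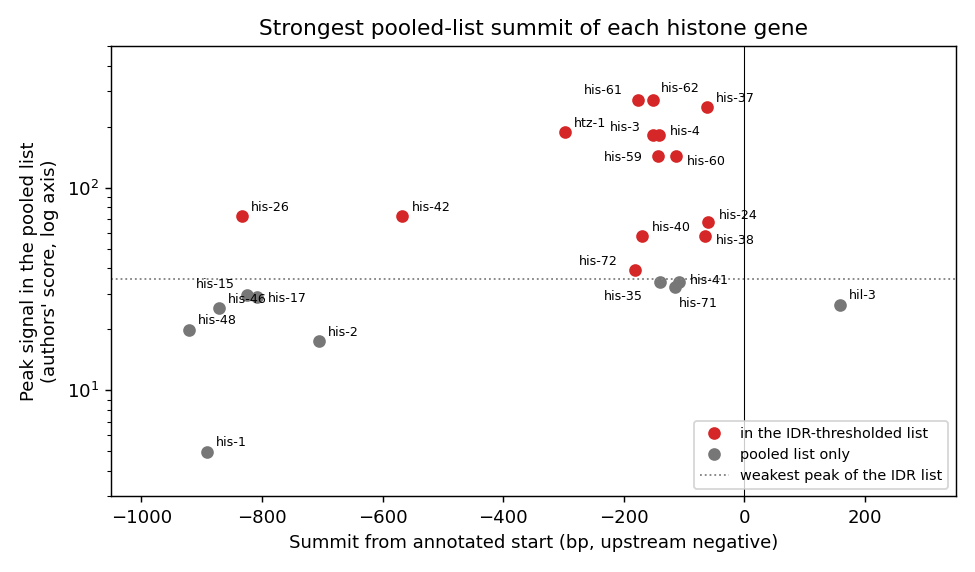
Strongest pooled-list summit of each histone gene that has one, by its distance from the annotated start (bp, upstream negative) and its signal (the authors' score, log axis). The 14 bound genes (red) lie above the weakest thresholded peak (dotted line, 35.4) and the 10 others (grey) below it. Bound genes had the same signal in both lists, so their place above the line follows from the call and is no separate result.

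Genes that supply and deposit histones were bound in 8 of 20 cases (40.0%), with a median strongest signal of 91.6 against 122.3 over all bound genes. The RbAp48-type chaperone gene lin-53 had 286 (153 and 139 in the replicates) and the nucleosome assembly gene nap-1 had 278 (148 and 108). Cdl-1 encodes the stem-loop binding protein that histone messages need. It was bound 149 bp upstream of its start with 150, and 58.5 and 46.0 in the replicates. Ruvb-2, a helicase of chromatin remodelling complexes, had 104, and 10.4 and 63.7. The histone chaperone gene asfl-1 and the chromatin assembly factor gene chaf-1 were not bound. Of the same list, unc-85 (73.5) and chaf-2 (70.9) were bound.

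Genes of histone modification were bound in 16 of 28 cases (57.1%), with a median of 82.3. The strongest were the acetyltransferase gene cbp-1 with 333 (197 and 117 in the replicates), the demethylase gene jmjd-1.2 with 178, the methyltransferase gene set-17 with 175 and the deacetylase gene hda-6 with 173. The jmjd-1.2 summit lay nearest to F29B9.11. The deacetylase genes hda-2 and hda-3 were not bound. Both lists were read against the 23.9% of all genes and were not tested. They were chosen with earlier results of these data known, so their shares only describe them.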

How the data were processed

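Peaks of 2 replicates of tagged DAF-16 were taken from the lists deposited on build ce11. These are 1 list per replicate (16146 and 21378 peaks), a list of both pooled (22466) and the IDR-thresholded list (8777, of which 8748 nuclear). A control file is named among their inputs, per the file headers of the deposited notes. Which aligner, caller and IDR cut-off the authors used is not given in the sources. The signal is a score in the deposited narrowPeak files, and served here to describe and order peaks of the same list. The lists on ce10 were not used here.

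Summits were joined to starts of the Ensembl annotation of WBcel235. Ensembl gives 36 of the histone genes a name shared with another copy, so RefSeq symbols were matched by gene ID for all 81, and core types were read from RefSeq product names, with hil- genes and his-24 set as H1 by symbol. For 64 of the 81 no 5' UTR is annotated, so the start is the first coding base. Members and lists were chosen with earlier results of these data known. The shared words, the 50% division by repeats and the divergent pairs were chosen after seeing the data. Named genes were every bound gene, every variant, the 4 strongest bound and up to 2 unbound genes (alphabetically) of each list, and genes of the loci. Unc-85 and chaf-2 were named beside these. Scripts were checked on simulated data. The labels do not say how the replicate cultures were separated. Alternatives were other windows, starts, peak sets, locus gaps, match distances, motif windows and word lengths. Python 3.11.15, numpy 2.4.6, pandas 2.3.3, Biopython 1.88 and matplotlib 3.10.9 were used.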

Additional observations from a re-analysis of the deposited data

How the results depend on the processing

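The 14 bound histone genes became 8 when each peak counted for its nearest start alone (6 of the 67 clustered genes, from 11), which removed his-26, his-3, his-40, his-59, his-61 and htz-1, while the share of all genes went from 23.9% to 19.8%. With the stronger 50% of peaks 8 genes remained (7 clustered, 1 solitary, 1 variant) in 4 loci, and 13.4% of all genes. In the whole pooled list 24 genes were bound (19 clustered, 5 solitary, 6 variant), 29.6% against 33.7% of all genes. The strongest 8777 peaks of the replicate left after leaving out the other gave 13 to 17 bound genes (22.7% to 23.7% of all genes), 7 to 10 loci, 10 to 12 clustered, 3 to 5 solitary and 4 to 5 variant genes, the upper solitary and variant counts without replicate 1. Without replicate 1, his-42 was lost and hil-3, his-15, his-2 and his-71 were gained. Without replicate 2, his-26, his-38 and his-40 were lost and his-35 and his-41 gained. The GATA site stood at 1 histone peak within 50 bp and at 4 within 150 bp, instead of 2. Repeated 50-base words lay within 150 bp of 2 of the 10 histone summits, against 3.54% of promoter peaks (166 of 4693). With words of 36 bases the count was 4 and with 100 bases it was 1, without a background at those lengths. No paired analysis was possible because the series holds a single group. Read depth is unknown, so a missing summit cannot be told from one too weak to be listed, and near-identical copies make peaks at clustered genes uncertain.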

Other observations

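Other peaks lay around the histone loci without falling in a histone window. Within 5 kb of the 28 loci there were 41 thresholded peaks, 31 of them outside the windows of histone genes, and 24 of these were nearest to another gene. The strongest was nearest to T10C6.15, with a signal of 911, 3259 bp from the locus of his-1 to his-4. Those nearest to F45E1.4 (300, beside his-71), mecr-1 (277, beside his-73) and sur-5 (270, beside his-38 and his-40) followed. Around the linker gene hil-3, which was not bound by the window rule, 4 peaks were nearest to its start, with 45.4, 57.9 and 75.7 upstream and 85.8 past it. No thresholded peak lay within 5 kb of 12 loci.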
